A study of Homo sapiens with 9 samples.

Results

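HCT8/DDP and HCT8/5-Fu are the chemoresistant derivatives of HCT8, an established human colorectal adenocarcinoma cell line. HCT8/DDP cells were selected with rising cisplatin (DDP) and then kept in it, and HCT8/5-Fu cells were selected with rising 5-fluorouracil (5-Fu) and kept in 5-Fu. The comparison described here set the 3 HCT8/DDP libraries against the 3 HCT8/5-Fu libraries, which are 6 of the 9 libraries of the study, and asked what separates the resistant lines from each other. The 3 libraries of chemosensitive HCT8 cells, grown in the same medium, are shown for reference and entered no test. mRNA, miRNA, lncRNA and circRNA were measured in every library, and the sources name no gene deletion or transgene. Each resistant phenotype is represented by 1 derived line, so the line and the drug in its medium cannot be told apart. Nothing in the sources says that the replicates of a line were separate cultures, so a p-value here reflects how much these particular libraries vary, and that variation may be technical.

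Cisplatin crosslinks DNA, and its adducts are removed by nucleotide excision repair and by the Fanconi and homologous recombination pathways. Copper transporters, metallothioneins and glutathione enzymes are known to bind or move platinum. 5-Fu is converted by pyrimidine enzymes to nucleotides that block thymidylate synthase and enter RNA and DNA. Most colorectal tumors carry active WNT signaling, in which beta-catenin and TCF factors switch on a set of target genes that includes the pathway's own inhibitors.

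The mRNA libraries held 26775644 to 27923262 counts in HCT8/DDP and 19848095, 28535882 and 28200518 counts in HCT8/5-Fu replicates 1, 2 and 3. HCT8/5-Fu replicate 1 stood apart from the other libraries of its line. The Pearson correlation of log2(CPM + 1) over 13012 genes, where CPM is the count scaled to library size with TMM factors, was 0.997 between HCT8/5-Fu replicates 2 and 3 and fell as low as 0.975 within the line once replicate 1 was included, against 0.993 to 0.995 within HCT8/DDP. *MDM2* and *CDKN1A*, targets of p53, stood at 1368 and 978 CPM in replicate 1 and at 604 to 647 and 482 to 524 CPM in replicates 2 and 3. The summed level of the replication-dependent histone genes was 1802 CPM in replicate 1 and 6883 and 6661 CPM in replicates 2 and 3. Results are therefore given with and without this library. No pair of libraries was alike within counting noise. By the same correlation, HCT8/5-Fu replicate 1 was about as close to the HCT8/DDP libraries (0.971 to 0.977) as to its own line (0.975 and 0.977). Colorectal epithelial genes such as *EPCAM* (337 to 409 CPM in these 6 libraries), *CDX2* (149 to 191 CPM) and *CDH17* (74.1 to 121 CPM) were present in both lines, while *CEACAM5* (0 to 0.716 CPM) and *GPA33* (0.613 to 2.37 CPM) of the same 12-gene marker list were near 0. The leukocyte gene *PTPRC* was at 0 and the 10 blood cell markers summed to 0.868 to 1.69 CPM in HCT8/5-Fu and 2.41 to 3.32 CPM in HCT8/DDP, most of it *CD14*. Of 10 stromal markers, *DCN*, *LUM* and *COL3A1* were at or below 0.0755 CPM, while *PDGFRB* was at 3.34 to 4.86 CPM, *COL1A1* at 2.55 to 9.64 CPM and *VIM* at 6.75 to 70.3 CPM. The part of other cells in the results was not tested. In bulk samples like these, a lower share of cells that express a gene and less RNA per cell cannot be told apart.

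The resistant lines resembled each other more than either resembled HCT8 cells. The correlation was 0.971 to 0.990 between HCT8/DDP and HCT8/5-Fu libraries, 0.938 to 0.948 between HCT8/DDP and HCT8, and 0.927 to 0.947 between HCT8/5-Fu and HCT8. The log2 fold change between the resistant lines, HCT8/DDP over HCT8/5-Fu, was under 0.5 in size for 11098 genes (85.3%) and over 1 for 479 genes (3.68%). By edgeR's quasi-likelihood test with Benjamini-Hochberg adjustment, 295 of 13012 genes (2.27%) passed an adjusted p of 0.05, of which 197 (1.51%) were upregulated and 98 (0.753%) downregulated in HCT8/DDP relative to HCT8/5-Fu. Among them, 86 genes (0.661%) changed beyond 2-fold, 69 upregulated (0.53%) and 17 downregulated (0.131%). The median size of the log2 fold change of the 295 genes was 0.74, and the libraries of both lines did not overlap for any of them. Non-overlap alone was common, at 3598 of all genes tested (27.7%).

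How many genes passed depended on single libraries. Without HCT8/5-Fu replicate 1, 3929 of 13162 genes passed (29.9%), with 1832 upregulated (13.9%) and 2097 downregulated (15.9%), and all 295 genes were among them with the same direction. Of these, 424 changed beyond 2-fold (3.22%), 369 upregulated (2.8%) and 55 downregulated (0.418%). Without any other of the 6 libraries, edgeR called 0 genes, while 1527 to 2551 genes had an unadjusted p under 0.05. The smallest adjusted p with all 6 libraries was 0.0147, so the called genes lay near the limit of the test. DESeq2 on all 6 libraries called 1283 genes (723 upregulated and 560 downregulated), which include all 295. The plot of fold change against level shows both fits.

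**Figure D1:**
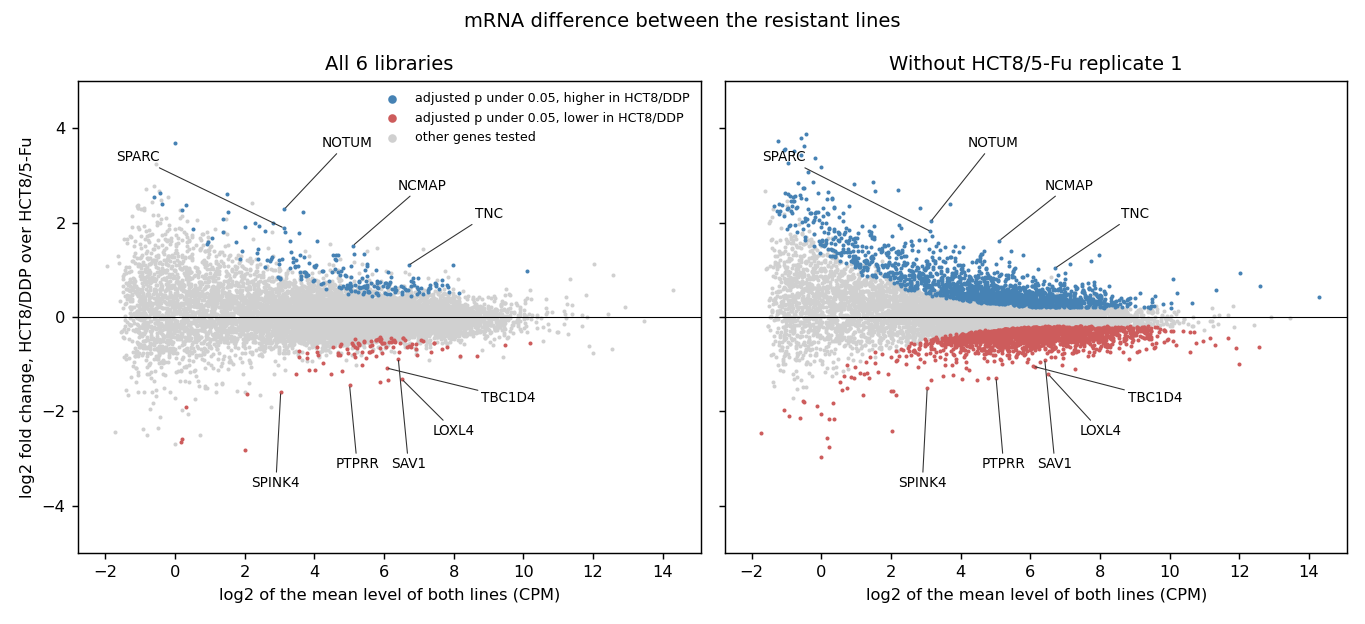
log2 fold change of each mRNA gene, HCT8/DDP over HCT8/5-Fu (vertical axis), against the log2 of its mean level in both lines in CPM (horizontal axis), with all 6 libraries (left) and without HCT8/5-Fu replicate 1 (right). Blue and red points are genes past an edgeR adjusted p of 0.05 and grey points the other genes tested. The left panel holds 197 blue and 98 red points, and the right panel 1832 and 2097.

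The parental cells did not lie on 1 side of these differences. Of the 98 genes lower in HCT8/DDP, HCT8 cells were nearer to HCT8/DDP for 80 and nearer to HCT8/5-Fu for 18, by the mean of log2(CPM + 1). Of the 197 genes higher in HCT8/DDP, HCT8 cells were nearer to HCT8/DDP for 81 and nearer to HCT8/5-Fu for 116. Over all genes tested the numbers were 6972 and 6040. These counts are a description, since the HCT8 libraries entered no test.

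Several WNT target genes were upregulated in HCT8/DDP relative to HCT8/5-Fu. Of 19 genes tested from a list of WNT targets and intestinal stem cell genes, 4 rose (*NOTUM*, *APCDD1*, *EPHB3* and *EPHB2*) and none fell, against 1.51% and 0.753% of all genes tested. The median log2 fold change of the 19 was 0.15 against -0.01 over all genes, with 11 of them above 0. *NOTUM* encodes a secreted enzyme that strips the lipid from WNT proteins and so blocks them, and lies at chr17:81952507-81961840 (GRCh38). Its level was 1.75, 3.61 and 3.51 CPM in the HCT8/5-Fu libraries, 15.1, 13.1 and 15.5 CPM in the HCT8/DDP libraries and 35.5, 22.4 and 25.3 CPM in HCT8 cells. Among called genes averaging 10 CPM or more in the higher line it had the largest increase, at 4.87-fold (log2 fold change 2.28 ± 0.27 SE, edgeR adjusted p = 0.0263), and was 2.02 on the log2 scale without HCT8/5-Fu replicate 1. Every HCT8/DDP library was above every HCT8/5-Fu library and below every HCT8 library. *APCDD1*, an inhibitor that acts at the cell surface on WNT receptors, followed the same order. It measured 7.08, 4.73 and 4.95 CPM in HCT8/5-Fu, 11.5, 15.8 and 16.4 CPM in HCT8/DDP and 79.9 to 85.1 CPM in HCT8 cells, a 2.59-fold difference between the resistant lines (1.37 ± 0.23, edgeR adjusted p = 0.0343).

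*EPHB3* and *EPHB2* are ephrin receptors that position cells along the intestinal crypt. *EPHB3* rose from 31.1, 32.7 and 33.1 CPM in HCT8/5-Fu to 60.8, 67.1 and 50.1 CPM in HCT8/DDP (0.87 ± 0.12, edgeR adjusted p = 0.0271), and the HCT8 libraries at 52.8 to 73.2 CPM overlapped the HCT8/DDP range. *EPHB2* rose from 141, 193 and 197 CPM to 281, 276 and 275 CPM (0.64 ± 0.13, edgeR adjusted p = 0.0499), with HCT8 cells below both lines at 116 to 125 CPM. The feedback inhibitors *AXIN2* (0.58 ± 0.13, edgeR adjusted p = 0.0542) and *NKD1* (0.98 ± 0.22, adjusted p = 0.0578) and the transcription factor *TCF7* (0.55 ± 0.13, adjusted p = 0.0672) did not pass with all 6 libraries. All 3 passed without HCT8/5-Fu replicate 1, where 8 of the 19 genes rose and 2 (*MYC* and *ASCL2*) fell, against 13.9% and 15.9% of all genes. The stem cell receptor gene *LGR5* (-0.03 ± 0.11) and *SOX9* (0.03 ± 0.09) differed little, with adjusted p of 0.902 and 0.906 by edgeR. The 4 genes that passed were thus a pair of secreted or surface WNT inhibitors and a pair of ephrin receptors.

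**Figure D2:**
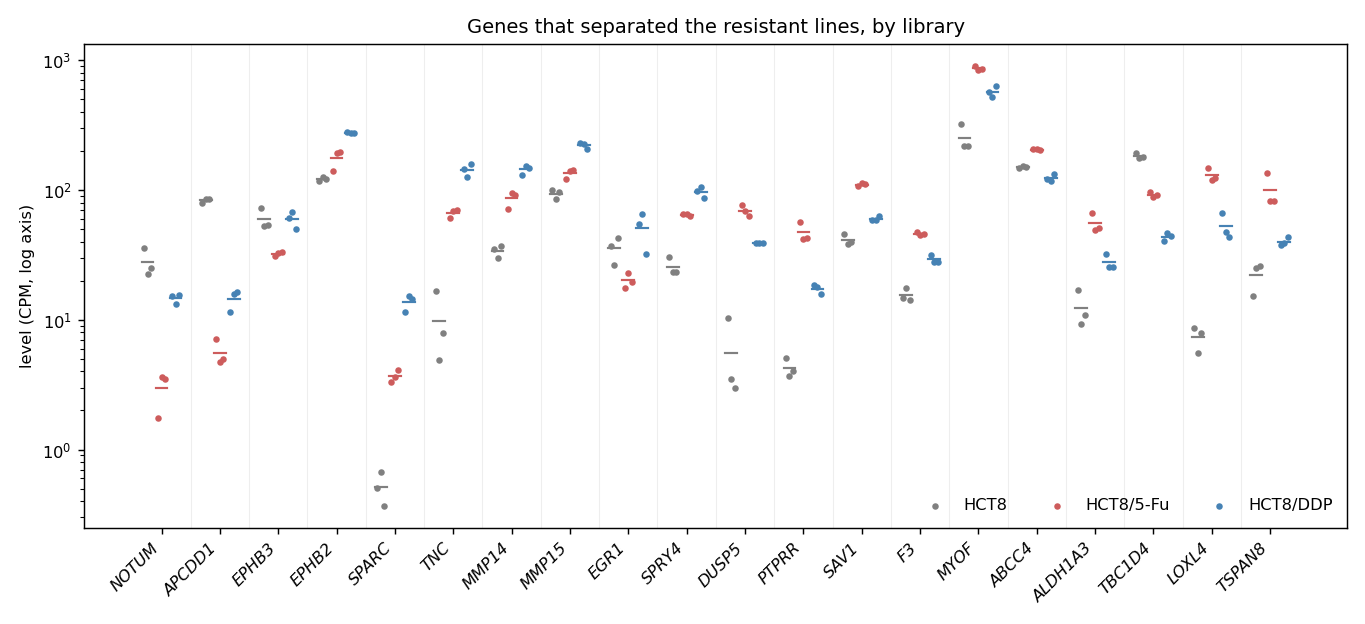
Level of 20 called genes in every library, in CPM on a log axis. Points are libraries and bars their means, in grey for HCT8, red for HCT8/5-Fu and blue for HCT8/DDP. For each gene the 3 blue points lie entirely above or below the 3 red points, and the grey points lie on either side, as for *NOTUM* (HCT8 highest) and *SPARC* (HCT8 lowest).

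Some genes that cut or modify the extracellular matrix were upregulated in HCT8/DDP. Of 20 matrix proteases and inhibitors tested, 5 rose (*MMP13*, *MMP11*, *SERPINE2*, *MMP14* and *MMP15*) and none fell, against 1.51% and 0.753% of all genes, with a list median of 0.45 and 15 of 20 above 0. *SPARC*, a matrix glycoprotein of mesenchymal cells (chr5:151661096-151686975), was at 3.3, 3.61 and 4.12 CPM in HCT8/5-Fu and at 11.4, 15.3 and 14.3 CPM in HCT8/DDP. The difference was 3.69-fold (1.88 ± 0.19, edgeR adjusted p = 0.0159), and HCT8 cells were at 0.37 to 0.67 CPM. *TNC*, which encodes the adhesion-modulating protein tenascin-C, rose from 60.6, 68.6 and 69.8 CPM to 144, 125 and 158 CPM (1.09 ± 0.11, edgeR adjusted p = 0.0159). It was at 4.86 to 16.6 CPM in HCT8 cells, so that both resistant lines lay above the parental cells and HCT8/DDP lay further above.

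*MMP14* and *MMP15* encode membrane-anchored metalloproteinases. *MMP14* stood at 71.3, 95 and 91.8 CPM in HCT8/5-Fu against 132, 152 and 148 CPM in HCT8/DDP (0.73 ± 0.12, edgeR adjusted p = 0.0343). *MMP15* stood at 121, 139 and 143 CPM against 230, 228 and 209 CPM (0.72 ± 0.10, adjusted p = 0.0271). The collagenase gene *MMP13* (1.93 ± 0.40) and the stromelysin *MMP11* (1.37 ± 0.23) rose from lower levels, with at most 3.27 CPM in any HCT8/5-Fu library. *SERPINE2*, a secreted inhibitor of thrombin and plasminogen activators, rose by 0.82 ± 0.14. Among 32 genes of a list of collagens, laminins, integrins and some other matrix genes, *TNC* and the fibronectin receptor subunit *ITGA5* (0.58 ± 0.10, edgeR adjusted p = 0.0367) rose and none fell. *SPARC* was not in this list. Over all genes tested 1.51% rose and 0.753% fell, and the median of the 32 was 0.21.

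Without HCT8/5-Fu replicate 1, 12 of the 20 protease genes and 20 of the 32 matrix genes rose and 1 (*COL4A2*) fell, against 13.9% and 15.9% of all genes in each direction. *VIM*, the intermediate filament of mesenchymal cells, was among the genes that rested on this library. It measured 6.75, 35.5 and 32.7 CPM in HCT8/5-Fu and 70.3, 60.6 and 67.3 CPM in HCT8/DDP, and its edgeR adjusted p was 0.146 with all 6 libraries and 6.42e-05 without replicate 1. HCT8 cells had 0.51 to 1.42 CPM. Of the other stromal markers, *COL1A1* was the sole further gene above 5 CPM in HCT8/DDP (7.51 to 9.64 CPM), and the summed level of the 10 stromal markers was 13.3 to 44.4 CPM in HCT8/5-Fu and 75.2 to 83.8 CPM in HCT8/DDP, most of it *VIM*. *DCN* had 0 counts in HCT8/DDP.

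Genes at the output of growth factor signaling changed in both directions. ERBB receptors and their ligands had a median of 0.30 over 11 genes, and 1 of them, the ligand gene *EGF*, rose. Its level was 16.8, 20.7 and 18.4 CPM in HCT8/5-Fu and 31.4, 38.0 and 34.5 CPM in HCT8/DDP (0.88 ± 0.13, edgeR adjusted p = 0.0271). *EGFR*, the receptor, was at 423 to 449 CPM against 548 to 606 CPM and did not pass (0.42 ± 0.10, edgeR adjusted p = 0.0669), but passed without HCT8/5-Fu replicate 1, as did *ERBB3* and *HBEGF*. The immediate early genes *EGR1* and *FOS*, transcription factors induced within minutes of ERK activation, rose. *EGR1* measured 17.6, 23.1 and 19.5 CPM against 54.5, 65.1 and 31.9 CPM (1.32 ± 0.25, edgeR adjusted p = 0.0396), so that HCT8/DDP replicate 3 lay nearest to HCT8/5-Fu. *FOS* measured 10.3, 11 and 10.4 CPM against 24, 26.4 and 15.7 CPM (1.05 ± 0.20, adjusted p = 0.045), again with the lowest HCT8/DDP value in replicate 3. The other 13 of 15 AP-1 and immediate early genes did not pass. Of all genes tested, 1.51% rose and 0.753% fell.

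Feedback inhibitors of the ERK pathway split. *SPRY4* rose from 64.8, 65.4 and 63.4 CPM to 97.5, 105 and 87.2 CPM (0.57 ± 0.10, edgeR adjusted p = 0.0367), and *SPRED3* rose by 0.60 ± 0.12 (adjusted p = 0.0499). Both encode inhibitors that act at the level of RAS and RAF. *DUSP5*, a nuclear phosphatase that removes phosphate from ERK, fell from 76.1, 69.4 and 62.5 CPM to 39.2, 39.1 and 38.9 CPM (-0.84 ± 0.11, edgeR adjusted p = 0.0271). *PTPRR*, a tyrosine phosphatase that also acts on ERK (chr12:70638073-70920738), fell from 56.8, 41.7 and 42.8 CPM to 18.4, 18.0 and 15.8 CPM, a 2.73-fold difference (-1.45 ± 0.16, adjusted p = 0.0217). Both phosphatase genes were far lower in HCT8 cells, at 2.96 to 10.3 CPM for *DUSP5* and 3.68 to 5.05 CPM for *PTPRR*. *DUSP6*, a cytosolic ERK phosphatase, went the other way at 442 to 529 CPM against 604 to 732 CPM and did not pass (0.44 ± 0.13, edgeR adjusted p = 0.108). Over the 17 genes of the list, 2 rose and 1 fell, against 1.51% and 0.753% of all genes. Without HCT8/5-Fu replicate 1 the counts were 5 and 4, against 13.9% and 15.9% of all genes.

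Genes that handle either drug gave few calls. None of 29 fluoropyrimidine and folate genes passed in edgeR, with a median of -0.06. Of these, 5 had an unadjusted p under 0.05 and DESeq2 called 4, against 20.8% and 9.86% of all genes. With HCT8/5-Fu replicate 1 left out, 8 fell and 1 rose, against 15.9% and 13.9% of all genes. Among the 8 were the uridine kinase gene *UCK2*, at 69.8, 86.6 and 93.4 CPM in HCT8/5-Fu and 54.8, 54.7 and 65.9 CPM in HCT8/DDP (-0.52 ± 0.13, edgeR adjusted p = 0.0732 with all 6 libraries), and the folate carrier gene *SLC19A1* (-0.55 ± 0.16, adjusted p = 0.107). *TYMS*, the target enzyme of 5-Fu, was at 95.9, 210 and 210 CPM against 137, 129 and 179 CPM, and the lines overlapped (-0.22 ± 0.27, edgeR adjusted p = 0.696), although it was another of the 8 that fell without replicate 1. The cytidine deaminase gene *CDA* was the 1 gene that rose without replicate 1, from 15.2 to 20.02 CPM in HCT8/5-Fu to 23.2 to 28.9 CPM in HCT8/DDP. Of 19 copper and platinum transport genes, none passed in edgeR with all 6 libraries, 3 had an unadjusted p under 0.05 and DESeq2 called 1. The copper exporter gene *ATP7A* was at 57.6, 41.9 and 41.8 CPM in HCT8/5-Fu and 58.0 to 60.8 CPM in HCT8/DDP (0.32 ± 0.14, adjusted p = 0.264). It passed without replicate 1 (0.49, adjusted p = 9.76e-04), the library that lay closest to HCT8/DDP.

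Among 18 ABC drug transporters, 1 rose and 1 fell. *ABCC4*, which exports cyclic nucleotides and nucleotide analogs, was at 205, 206 and 202 CPM in HCT8/5-Fu and 122, 118 and 132 CPM in HCT8/DDP (-0.73 ± 0.09, edgeR adjusted p = 0.0268), with HCT8 cells between them at 147 to 153 CPM. *ABCA3*, a lipid transporter, rose from 73.2 to 76.8 CPM to 102 to 122 CPM (0.52 ± 0.11, edgeR adjusted p = 0.048). The multidrug exporter gene *ABCB1* (-0.26 ± 0.15, adjusted p = 0.384) overlapped between the lines. Of 16 aldehyde dehydrogenases, *ALDH2* rose (0.62 ± 0.12) and *ALDH1A3*, a retinal dehydrogenase, fell from 66.5, 49.4 and 50.7 CPM to 32.2, 25.5 and 25.5 CPM (-1.01 ± 0.16, edgeR adjusted p = 0.0297). The 2 lists thus held 2 genes that rose and 2 that fell, against 1.51% and 0.753% of all genes tested.

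DNA repair genes gave 2 calls with all 6 libraries, a fit in which 1.51% of all genes rose and 0.753% fell. Of 20 nucleotide excision repair genes 1 fell, *GTF2H2*, a subunit of TFIIH, at 19.4, 16.5 and 17 CPM against 9.54, 8.8 and 10.8 CPM (-0.87 ± 0.15, edgeR adjusted p = 0.0378). *GTF2H2* has near-identical copies in the genome, so its counts are uncertain. Of 22 base excision repair genes 1 rose, *PARP3*, a polymerase that adds ADP-ribose at DNA breaks, from 26.1 to 28.8 CPM to 41.6 to 46.6 CPM (0.68 ± 0.10, edgeR adjusted p = 0.0271). None of 28 Fanconi and homologous recombination genes and none of 10 mismatch repair genes passed in edgeR, and DESeq2 called none of either list. Among these, 5 and 2 genes had an unadjusted p under 0.05, against 20.8% of all genes. More passed without HCT8/5-Fu replicate 1, where 7 of 22 base excision repair genes fell and 1 rose, 3 of 10 mismatch repair genes fell and none rose, 3 of 20 nucleotide excision repair genes fell and 2 rose, and 4 of 28 Fanconi and homologous recombination genes fell and 2 rose, against 15.9% of all genes that fell and 13.9% that rose.

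In the Hippo pathway the kinases MST and LATS hold back the coactivators YAP and TAZ. Of 20 core genes of the pathway 1 fell, against 0.753% of all genes. This was *SAV1* (chr14:50632058-50668306), the scaffold protein that joins MST kinases to LATS kinases. It was at 107, 112 and 111 CPM in HCT8/5-Fu, 58.5, 58.7 and 62.9 CPM in HCT8/DDP and 38.6 to 45.4 CPM in HCT8 cells. With a log2 fold change of -0.89 ± 0.08 it had the smallest adjusted p of the comparison (0.0147 by edgeR), shared with *TBC1D4*, *NCMAP* and *ESPN*. *YAP1* was at 499, 342 and 339 CPM against 328, 321 and 360 CPM and overlapped between the lines (-0.24 ± 0.17, adjusted p = 0.467). *TEAD1*, a DNA-binding partner of YAP, was at 443 to 534 CPM against 378 to 402 CPM and did not pass (-0.30 ± 0.11, adjusted p = 0.183). Of 19 YAP and TEAD targets, 2 fell and none rose, against 0.753% and 1.51% of all genes. They were the tissue factor gene *F3*, at 47.4, 44.7 and 45.8 CPM against 31.8, 27.9 and 28.0 CPM (-0.66 ± 0.10, edgeR adjusted p = 0.0281), and the membrane repair gene *MYOF*, at 902, 840 and 848 CPM against 566, 519 and 634 CPM (-0.60 ± 0.12, adjusted p = 0.045). Leaving out HCT8/5-Fu replicate 1, 6 of 19 targets fell and none rose, against 15.9% of all genes that fell. *CCN2*, a widely used YAP target, overlapped between the lines (-0.23 ± 0.17, adjusted p = 0.507).

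Of 17 keratins tested, 1 passed, against 2.27% of all genes. Of these, 9 had an unadjusted p under 0.05 and DESeq2 called 7, against 20.8% and 9.86% of all genes. The abundant simple epithelial keratins *KRT8* (6912 to 7849 CPM against 4285 to 5197 CPM) and *KRT18* (4304 to 4799 CPM against 2767 to 3519 CPM) did not overlap between the lines but did not pass with all 6 libraries, at -0.68 ± 0.15 and -0.61 ± 0.15 (edgeR adjusted p = 0.0581 and 0.0732). Both passed without HCT8/5-Fu replicate 1 (edgeR adjusted p = 2.92e-04 and 4.89e-04). In that fit 6 of 18 keratins fell and 1 rose, against 15.9% and 13.9% of all genes. *KRT6A*, a keratin of stratified epithelium, fell from 1.32 to 2.18 CPM to 0.11 to 0.511 CPM (-2.65 ± 0.54, edgeR adjusted p = 0.0499). This was the 1 keratin that passed with all 6 libraries. *KRT6A* met the minimum count of the filter through its HCT8/5-Fu libraries, so its p-value is a description. The list median was -0.35, with 4 of 17 above 0. *TSPAN8*, a tetraspanin of intestinal epithelium, fell from 134, 82.5 and 82.5 CPM to 37.7, 39.0 and 43.4 CPM (-1.33 ± 0.20, adjusted p = 0.0271). *SPINK4*, a peptide of goblet cells, fell from 13.5, 10.3 and 12.9 CPM to 3.05, 4.97 and 4.21 CPM (-1.59 ± 0.23, adjusted p = 0.0271), the largest decrease among called genes averaging 10 CPM or more in the higher line. None of 26 epithelial junction genes passed in edgeR with all 6 libraries. Of the 26, 4 had an unadjusted p under 0.05 and DESeq2 called 2, against 20.8% and 9.86% of all genes.

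The other genes with the largest decreases had varied roles. *LOXL4*, a lysyl oxidase that crosslinks collagen (chr10:98247690-98268194), was at 148, 120 and 124 CPM in HCT8/5-Fu and 66.8, 47.6 and 43.3 CPM in HCT8/DDP (-1.32 ± 0.18, edgeR adjusted p = 0.0271), against 5.53 to 8.71 CPM in HCT8 cells. *MACC1*, a regulator of the MET receptor known from metastatic colon cancer, was at 130, 62.9 and 64.0 CPM against 30.2, 31.7 and 37.4 CPM. Its log2 fold change of -1.39 ± 0.28 (adjusted p = 0.0493) was -0.95 without HCT8/5-Fu replicate 1, where it was highest. *SLC7A2*, a transporter of cationic amino acids, fell from 30.5, 42.3 and 41.0 CPM to 17.5, 16.8 and 17.1 CPM (-1.16 ± 0.14, adjusted p = 0.0268), and HCT8 cells lay above both lines at 103 to 110 CPM. The remaining genes of the 20 largest decreases were *PLAC8*, *VGF*, *ALPP*, *CLDN6*, *PIGW*, *DHX37*, *NETO2*, *YRDC* and *NUP50*, with log2 fold changes from -1.21 to -0.84, beside *PTPRR*, *TSPAN8*, *TBC1D4*, *ALDH1A3*, *SAV1*, *GTF2H2* and *DUSP5* described here. The placental alkaline phosphatase gene *ALPP* fell (-1.12 ± 0.22) while its intestinal paralog *ALPI* rose (1.31 ± 0.19), and reads can be split wrongly between such similar genes.

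The largest increases beyond the WNT and matrix genes were also of mixed function. *NCMAP*, a membrane protein known from myelin (chr1:24556087-24609328), was at 20.4, 15.8 and 17.3 CPM in HCT8/5-Fu and 45.4, 57.4 and 50.5 CPM in HCT8/DDP (1.51 ± 0.14, edgeR adjusted p = 0.0147). *ESPN*, an actin bundler of microvilli, rose from 25.9, 22.6 and 24.2 CPM to 61.7, 69.8 and 54.0 CPM (1.34 ± 0.13, adjusted p = 0.0147). *NUPR1*, a stress-induced chromatin protein, had the widest spread of these genes, at 5.47, 3.68 and 4.27 CPM against 32.7, 20.2 and 10.2 CPM (2.23 ± 0.40, adjusted p = 0.0385). The purinergic channel gene *P2RX1* rose from 4.01, 1.95 and 2.53 CPM to 12.9, 12.3 and 8.49 CPM (1.99 ± 0.31, adjusted p = 0.0279). *KCNQ1*, a potassium channel of epithelia, rose from 16.1, 15.1 and 12.4 CPM to 38.7, 39.4 and 31.2 CPM (1.32 ± 0.16, adjusted p = 0.0268), and *AQP1*, a water channel, from 10.2 to 16.6 CPM to 32.4 to 37.1 CPM (1.30 ± 0.18, adjusted p = 0.0271). *AQP1* was below 1 CPM in HCT8 cells, while *KCNQ1* was higher there than in either resistant line at 47.2 to 49.6 CPM. The remaining genes among the 20 largest increases were *PAQR8*, *ADGRA2*, *SEPTIN4*, *PTGS1*, *KIF21B*, *DES*, *ACSM3*, *SUSD2* and *SRR*, with log2 fold changes from 1.22 to 1.80.

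Interferon-stimulated and MHC class I genes had medians above that of all genes but gave 1 call between them with all 6 libraries. In that fit 1.51% of all genes rose. Interferon-stimulated genes had a median log2 fold change of 0.51 over 32 genes, 24 of them above 0, and none passed in edgeR with all 6 libraries. Of these, 15 had an unadjusted p under 0.05, DESeq2 called 7, and 17 of 33 rose without HCT8/5-Fu replicate 1. Over all genes these shares were 20.8%, 9.86% and 13.9%. *IFI6* measured 27.9, 26.7 and 23.9 CPM in HCT8/5-Fu and 55, 77.8 and 38.5 CPM in HCT8/DDP (1.12 ± 0.23, edgeR adjusted p = 0.0516), and the antiviral gene *IFIT1* 16.6, 15.3 and 12.6 CPM against 32.6, 41.4 and 21.5 CPM (1.09 ± 0.24, adjusted p = 0.0547). In both genes HCT8/DDP replicate 2 was highest and replicate 3 lowest of that line. MHC class I presentation genes had a median of 0.31 over 19 genes, of which 1, *HLA-E*, a class I molecule read by natural killer cells, rose (117, 122 and 129 CPM against 204, 221 and 162 CPM, 0.67 ± 0.13, adjusted p = 0.0438). HLA genes are alike in sequence, so their counts are uncertain. Of the 19, 11 rose and none fell without HCT8/5-Fu replicate 1, against 13.9% and 15.9% of all genes.

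All 13 mitochondrially encoded genes had a log2 fold change above 0, with a median of 0.53. With all 6 libraries 1 passed, the ATP synthase subunit gene *MT-ATP6*, against 1.51% of all genes that rose. It measured 561, 810 and 861 CPM in HCT8/5-Fu, 1307, 1768 and 1306 CPM in HCT8/DDP and 1831 to 2960 CPM in HCT8 cells (0.97 ± 0.19, edgeR adjusted p = 0.047). Of the 13, 8 had an unadjusted p under 0.05 and DESeq2 called 6, against 20.8% and 9.86% of all genes. Without HCT8/5-Fu replicate 1, 8 rose and none fell, against 13.9% and 15.9% of all genes. Mitochondrial genes took 2.75% to 3.70% of the counts in HCT8/5-Fu and 4.64% to 5.86% in HCT8/DDP, with the lowest share in HCT8/5-Fu replicate 1. The part of RNA quality or library preparation in these shares was not tested.

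Genes of the cell cycle changed place with the library left out. The median of 25 DNA replication genes was 0.01 with all 6 libraries and -0.30 without HCT8/5-Fu replicate 1, and that of 43 replication-dependent histone genes moved from 0.01 to -0.41. With all 6 libraries no gene of either list had an unadjusted p under 0.05, and neither edgeR nor DESeq2 called any. With replicate 1 left out, 14 of 25 and 21 of 44 fell, against 15.9% of all genes in that fit. *MCM4*, a subunit of the replicative helicase, shows the pattern at 192, 434 and 411 CPM in HCT8/5-Fu and 272, 250 and 303 CPM in HCT8/DDP. Of 78 cytosolic ribosomal protein genes, 1 (*RPL26*, -0.75 ± 0.13, edgeR adjusted p = 0.0361) fell with all 6 libraries and 39 without replicate 1. Over all genes these shares were 0.753% and 15.9%. The p53 targets had a median of -0.22 over 28 genes and of -0.06 without replicate 1, and none passed with all 6 libraries by edgeR. Of the 28, 7 had an unadjusted p under 0.05 and DESeq2 called 1, against 20.8% and 9.86% of all genes. The plot of list medians shows which lists moved with that library.

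**Figure D3:**
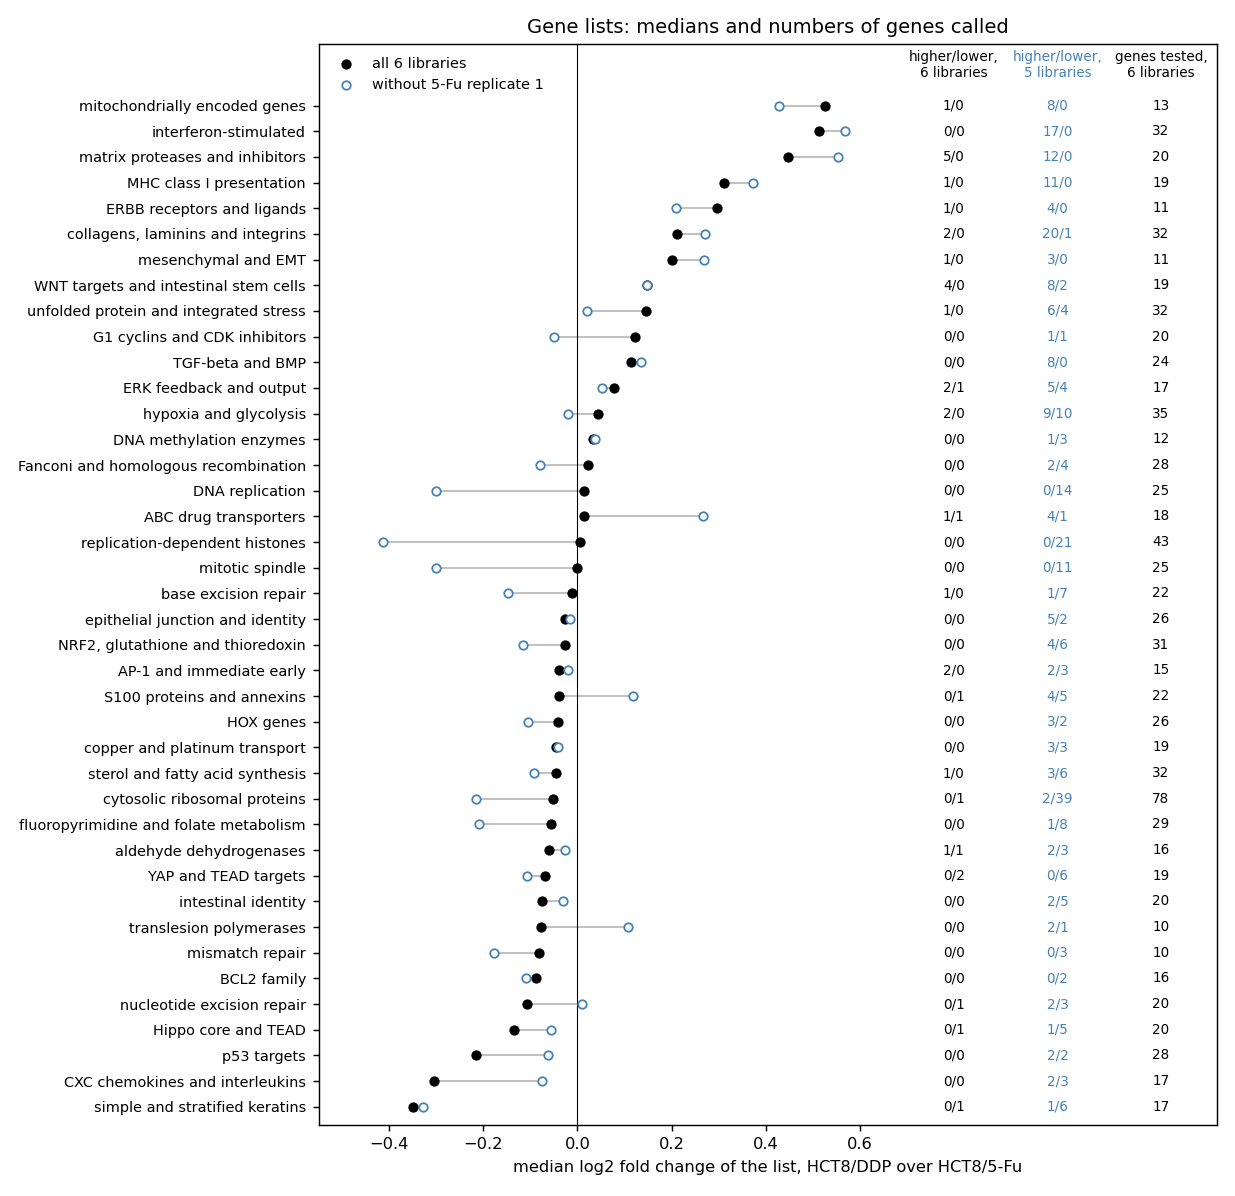
Median log2 fold change, HCT8/DDP over HCT8/5-Fu, of each list with at least 10 genes tested, with all 6 libraries (black) and without HCT8/5-Fu replicate 1 (open blue). The columns on the right give the genes called higher and lower by edgeR with 6 and with 5 libraries, and the genes tested with 6. Matrix proteases keep a median above 0.4 in both fits, while histone, replication and spindle genes move from about 0 to -0.30 or below.

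Genes on chromosome 13 were lower in HCT8/DDP as a group. Of 209 genes tested there, 9 fell (4.31%) and none rose, against 0.753% of all genes that fell, and 156 of them (74.6%) had a log2 fold change below 0. Their median was -0.18 with all 6 libraries and -0.14 without HCT8/5-Fu replicate 1, where 72 (34.4%) fell and 19 rose, against 15.9% and 13.9% of all genes. The next lowest median was -0.08, on chromosome 18, and the highest was 0.06, on chromosome 19. Chromosome 13 took 2.34%, 2.22% and 2.17% of the mRNA counts in the HCT8/5-Fu libraries, 1.997%, 1.96% and 1.97% in the HCT8/DDP libraries and 2.41% to 2.45% in HCT8 cells, so that HCT8/DDP lay below all other libraries. These figures are a description over neighbouring genes, which are not independent, and DNA copy number was not measured.

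The 9 genes that fell lie along the long arm from *MIPEP* (chr13:23730189-23889400) to *ABHD13* (chr13:108218392-108234243). *TBC1D4* (chr13:75283503-75482169), a Rab GTPase activator that controls glucose transporter traffic, showed the largest difference, from 96.7, 88.8 and 90.8 CPM to 40.4, 46.3 and 44.5 CPM (-1.09 ± 0.10, edgeR adjusted p = 0.0147). HCT8 cells had 177 to 191 CPM, above both lines. The transporter gene *ABCC4* lies on the same chromosome. The others were *UFM1*, *SLC25A30*, *RNASEH2B*, *VPS36* and *SUGT1*, and with *MIPEP* and *ABHD13* they fell by 0.44 to 0.64 on the log2 scale.

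**Figure D4:**
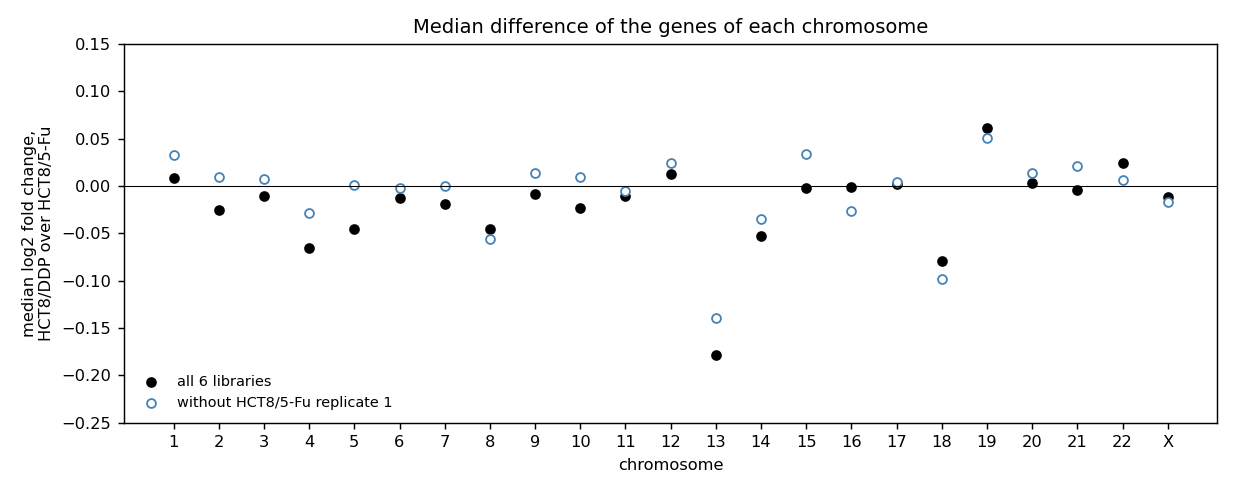
Median log2 fold change, HCT8/DDP over HCT8/5-Fu, of the mRNA genes tested on each chromosome, with all 6 libraries (black) and without HCT8/5-Fu replicate 1 (open blue). Chromosome 13 is lowest in both fits, at -0.18 and -0.14, and the other chromosomes lie between -0.10 and 0.06.

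miRNAs are short RNAs that bind transcripts mainly through their seed, bases 2 to 8. The 9 miRNAs on which the following results turn are shown first, each 5′ to 3′ with the seed in capitals, from RefSeq on GRCh38.p14, where 503 of the 567 miRNAs tested had a mature sequence of the same name. No pair of the 9 shared a seed.
miR-133a-3p: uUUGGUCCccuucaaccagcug
miR-1-3p: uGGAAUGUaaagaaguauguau
miR-769-5p: uGAGACCUcuggguucugagcu
miR-92a-3p: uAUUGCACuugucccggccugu
miR-302a-5p: aCUUAAACguggauguacuugcu
miR-302b-3p: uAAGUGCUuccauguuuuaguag
miR-942-3p: cACAUGGCcgaaacagagaagu
miR-6516-5p: uUUGCAGUaacaggugugagca
miR-181a-5p: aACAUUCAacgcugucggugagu

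By limma on log2(RPM + 1), where RPM is the reads of a miRNA scaled to library size, 7 of 567 miRNAs passed an adjusted p of 0.05 (1.23%), 2 upregulated (0.353%) and 5 downregulated (0.882%) in HCT8/DDP. The reads recovered for the listed miRNAs summed to 6113084, 14087207 and 11071911 reads in HCT8/5-Fu replicates 1 to 3 and 732699, 3558150 and 4223193 in HCT8/DDP. The authors' RPM was set on larger totals than these sums, and 1 read was worth 1.12 RPM in HCT8/DDP replicate 1 and 0.0583 to 0.236 RPM in the others. Levels below a few RPM rest on few reads in that library. Its correlation of log2(RPM + 1) with HCT8/DDP replicates 2 and 3 was 0.979 and 0.976, against 0.994 between those replicates. HCT8/DDP replicates 2 and 3 reached 0.988 to 0.989 with HCT8/5-Fu replicates 2 and 3. Once HCT8/5-Fu replicate 1 was left out, 8 of 550 miRNAs passed (1.45%), and 3 of them (miR-92a-3p, miR-133a-3p and miR-769-5p) were among the 7. Without HCT8/DDP replicate 1 limma called 4, all among the 7. Without any 1 of the other 4 libraries limma called 0, with 61 to 88 at an unadjusted p under 0.05. edgeR and DESeq2 on the recovered reads, fits chosen after seeing the data, called 23 and 29 of 505 miRNAs. The median log2 fold change of all miRNAs was -0.10, and quantile scaling moved it to 0.01 and called 10 upregulated and 10 downregulated miRNAs.

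miR-92a-3p, an abundant member of the miR-17-92 family that is known to promote proliferation, was the miRNA with the highest level among the 7. The HCT8/5-Fu libraries measured 10111, 10878 and 10891 RPM, the HCT8/DDP libraries 5762, 6456 and 7372 RPM and the HCT8 libraries 8494 to 9073 RPM, and the resistant lines did not overlap. The difference was -0.71 ± 0.12 on the log2 scale (limma adjusted p = 0.0328), and -0.74 without HCT8/5-Fu replicate 1. Its mature sequence is made from a locus on chromosome 13 (chr13:91351361-91351382) and another on chromosome X (chrX:134169544-134169565), which the reads do not tell apart. The miR-17-92 cluster and its paralogs had a median of -0.30 over 13 miRNAs, with 1 called lower, against 0.882% of all miRNAs. miR-769-5p rose from 336, 371 and 386 RPM to 544, 643 and 640 RPM (0.74 ± 0.14, limma adjusted p = 0.0424), with HCT8 cells above both at 838 to 1357 RPM.

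miR-133a-3p and miR-1-3p are made together in muscle, from paired genes 3.3 kb apart on chromosome 18 and 10.6 kb apart on chromosome 20. miR-133a-3p rose from 6.62, 5.72 and 5.26 RPM to 15.7, 16 and 15.1 RPM (1.28 ± 0.23, limma adjusted p = 0.0328), against at most 0.95 RPM in HCT8 cells. miR-1-3p measured 224, 162 and 148 RPM against 240, 336 and 396 RPM and did not pass (0.86 ± 0.23, adjusted p = 0.102). Both were higher in every HCT8/DDP library than in any HCT8/5-Fu library and higher in every resistant library than in HCT8 cells, where miR-1-3p was at 7.92 to 15.3 RPM.

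The other 4 miRNAs that fell were scarce. miR-302a-5p and miR-302b-3p come from a cluster on chromosome 4 that is known from pluripotent stem cells. miR-302a-5p had 26, 42 and 48 reads in the HCT8/5-Fu libraries and 0 in each HCT8/DDP and HCT8 library. With 3 reads summed over the HCT8/DDP libraries (0.297 RPM) as the floor, it was at least 10.9-fold lower in HCT8/DDP, counting error alone considered (limma adjusted p = 0.015). miR-302b-3p had 25, 46 and 28 reads against 0, 1 and 3 (-1.57 ± 0.30, adjusted p = 0.0424), and miR-942-3p had 15, 60 and 37 reads against 0, 0 and 2 (-1.75 ± 0.29, adjusted p = 0.0328). Given the smaller number of reads in HCT8/DDP replicate 1, its counts of 0 carry little weight. These 3 met the minimum level through the HCT8/5-Fu libraries alone, so their p-values are a description. They fell under that level without HCT8/5-Fu replicate 1 and were not tested there. miR-6516-5p measured 11.7, 8.51 and 9.08 RPM against 3.37, 2.59 and 3.01 RPM (-1.42 ± 0.25, adjusted p = 0.0328). Of the 7 miRNAs, miR-92a-3p and miR-769-5p met the minimum of 50 RPM of the naming rule, and the others were named after their values were seen.

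miR-181a-5p, which is known from lymphocyte development, was at 179, 77.0 and 80.5 RPM in the HCT8/5-Fu libraries against 36.0, 40.5 and 43.6 RPM in the HCT8/DDP libraries. It did not pass with all 6 libraries (-1.35 ± 0.31, limma adjusted p = 0.0634) and passed without HCT8/5-Fu replicate 1, its highest library (-0.96, adjusted p = 0.0431). The miR-181 family had a median of -0.74 over 5 miRNAs, of which limma called none. Of the 5, 4 had an unadjusted p under 0.05 in limma, against 88 of all 567 miRNAs tested. On the recovered reads edgeR and DESeq2 called 2 and 3 of the family, against 23 and 29 of 505 miRNAs. The intestinal miR-192-5p, at 31377 to 48764 RPM against 19828 to 26376 RPM (-0.74 ± 0.18, adjusted p = 0.09), and the abundant miR-148a-3p, at 98318 to 120573 RPM against 151914 to 171886 RPM (0.52 ± 0.12, adjusted p = 0.0634), did not overlap between the lines but did not pass. For the epithelial miR-200 family, limma called none of 9 (median -0.34, 2 at an unadjusted p under 0.05), as did edgeR and DESeq2. miR-424-5p and miR-503-5p, which the study linked to its circRNAs, did not pass (-0.73 ± 0.24 and -0.10 ± 0.21, adjusted p = 0.177 and 0.827 by limma).

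**Figure D5:**
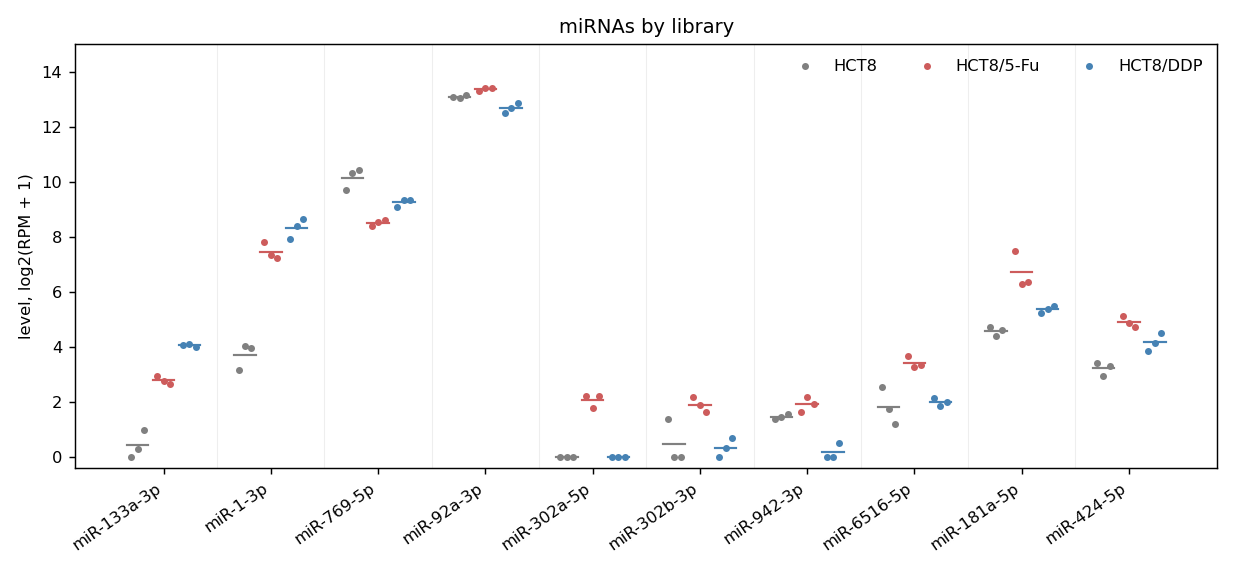
Level of 10 miRNAs in every library as log2(RPM + 1). Points are libraries and bars their means, in grey for HCT8, red for HCT8/5-Fu and blue for HCT8/DDP. miR-133a-3p, miR-1-3p and miR-769-5p are higher and the other 7 lower in each blue library than in any red library.

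Few lncRNA transcripts passed an adjusted p of 0.05. By limma on log2(value + 1), with the deposited normalized values, 3 of 2262 transcripts passed (0.133%), 1 upregulated (0.0442%) and 2 downregulated (0.0884%), and 105 had an unadjusted p under 0.05. ENST00000668169 was listed at 0 in each HCT8/5-Fu library and at 2.72, 3.27 and 3.01 in HCT8/DDP (adjusted p = 0.0226). MSTRG.16492.17 was at 2.86, 2.42 and 2.81 in HCT8/5-Fu and at most 9.47e-04 in HCT8/DDP (adjusted p = 0.0276). MSTRG.30161.40 was at 10.7, 17.5 and 21.9 against 0.16, 0 and 2.25 (adjusted p = 0.0446), with 0 in all HCT8 libraries. MSTRG.30161.40 did not pass without HCT8/5-Fu replicate 1, although its log2 fold change was as large there (-3.45 with and -3.72 without it, limma adjusted p = 0.181 without). All 3 transcripts were named after their values were seen. ENST00000668169 met the minimum value through HCT8/DDP alone and MSTRG.16492.17 through HCT8/5-Fu alone, so their p-values are a description. The table pairs these transcripts with no gene name, and depth behind the values is unknown. HCT8/5-Fu replicate 1 listed 3290 transcripts at 1 or more and replicates 2 and 3 listed 1437 and 1733. Without it 2 of 1794 transcripts passed, both upregulated (0.111%), and ENST00000668169 was the 1 shared. In that fit 389 transcripts had an unadjusted p under 0.05 by limma, and MSTRG.16492.17 was not tested. With either HCT8/5-Fu replicate 3 or HCT8/DDP replicate 1 left out limma called 0, with 77 and 62 transcripts at an unadjusted p under 0.05, and without HCT8/DDP replicate 2 it called 1.

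circRNAs are recognized by reads across a back-splice junction, and their numbers of reads were low. The libraries held 8310, 15980 and 15862 such reads in HCT8/5-Fu replicates 1 to 3 and 14637, 16906 and 15068 in HCT8/DDP. The correlation of log2(RPM + 60) was 0.299 to 0.418 between the resistant lines, and 0.34 to 0.412 within them. By limma with the study's thresholds, a change of more than 2-fold at an unadjusted p of 0.05, 94 of 2009 circRNAs with at least 10 reads passed (4.68%), 54 upregulated (2.69%) and 40 downregulated (1.99%). None passed an adjusted p of 0.05 in limma, where the smallest was 0.33 and 96 had an unadjusted p under 0.05. The 96 are about as many of 2009 as an unadjusted p of 0.05 lets through when no circRNA differs. At an adjusted p of 0.05 DESeq2 also called none, and edgeR called 1. Without HCT8/5-Fu replicate 1, 70 of 1801 passed the study's thresholds (3.89%), 38 upregulated (2.11%) and 32 downregulated (1.78%), of which 37 were among the 94. Without HCT8/DDP replicate 2 the count was 61.

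The circRNAs with the smallest p are given by their reads, since depth limits each value. They were picked by p in these same libraries, so their values are a description. hsacirc_015143 had 0 reads in each HCT8/5-Fu library and 4, 24 and 11 in HCT8/DDP, at least 10.8-fold higher against a floor of 3 reads over the HCT8/5-Fu libraries (limma unadjusted p = 3.29e-04). hsacirc_030505 had 1, 15 and 3 reads against 18, 29 and 26 (2.17 ± 0.63, unadjusted p = 5.20e-04). hsacirc_018293 had 15, 19 and 16 reads against 0, 7 and 5 (-2.60 ± 0.71, unadjusted p = 2.29e-04), and hsacirc_019986 had 12, 16 and 14 against 1, 7 and 2 (-2.33 ± 0.73, unadjusted p = 0.00131). These 4 did not overlap between the lines, and all 4 stayed past the study's thresholds without HCT8/5-Fu replicate 1. hsacirc_015143 met the read minimum through HCT8/DDP alone.

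Of the circRNAs that the study listed, which were chosen on these samples and are no independent evidence, 16 of 23 were tested. hsacirc_000579, from the RNA polymerase II gene *POLR2A*, had 5, 6 and 6 reads in HCT8/5-Fu and 0 in each HCT8/DDP and HCT8 library, at least 7.02-fold lower in HCT8/DDP (limma unadjusted p = 0.00419). It met the read minimum through HCT8/5-Fu alone, so its p-value and fold are a description. The *POLR2A* mRNA did not pass (-0.10 ± 0.12, edgeR adjusted p = 0.688). hsacirc_022191 from *CREB1* had 0, 1 and 0 reads in HCT8/5-Fu against 6, 3 and 11 in HCT8/DDP, hsacirc_020305 from *FOXP1* had 0, 1 and 0 against 6, 5 and 6, and both were at 0 in HCT8 cells. Both met the read minimum through their HCT8/DDP reads. The abundant hsacirc_023607 had 406, 483 and 589 reads against 504, 535 and 565, and its RPM overlapped between the lines (-0.14 ± 0.12, limma unadjusted p = 0.236). hsacirc_006554 had 33, 46 and 54 against 23, 45 and 42 reads, its RPM did not overlap, and it did not pass (-0.57 ± 0.36, limma unadjusted p = 0.12). Both were higher in either resistant line than in HCT8 cells, where hsacirc_023607 had 92 to 195 reads.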

How the data were processed

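RNA of the 3 cell lines had its rRNA removed, and RNase R digested linear RNA before circRNA sequencing. Whether RNase R was also used for the mRNA counts is not given in the sources used here. The authors aligned reads with HISAT2 and found circRNAs with find_circ. Groups followed the sample titles, 3 libraries per line. The mRNA table holds a count per gene as deposited by the authors. Its 9 deposited FPKM columns were not used. The deposited miRNA and circRNA values are RPM. The deposited lncRNA values are a normalized signal whose unit is not given in the sources used here. The submitters' notes name mm9 as the build although the cells are human. The mRNA coordinates were checked against GRCh38.p14, where 18791 of 19976 gene symbols (94.1%) were on the same chromosome and 18788 of these (99.98%) overlapped in position.

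Computations used R 4.3.3. mRNA counts were tested with edgeR 4.0.16 (quasi-likelihood, TMM, filterByExpr), and the standard error of a log2 fold change is its size over the square root of the F statistic. Per-library CPM used TMM factors over 9 libraries. miRNA and lncRNA values went through limma 3.58.1 (trend) as log2(value + 1), keeping features with a value of at least 1 in 3 of the 6 libraries, and circRNAs on log2(RPM + 60), keeping those with at least 10 reads over the 6 libraries. p-values were adjusted over all features tested, and a fold change on these scales understates the change of low features. RPM values were whole multiples of 1 read within 0.1 of a read for 94.6% to 100% of miRNA values and within 0.01 for 100% of circRNA values in the 6 libraries, so reads were recovered. Floors and intervals cover counting error only. Each procedure was tested on simulated data.

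Members and gene lists were chosen with earlier results of these data known. Named mRNAs are, per direction, the 20 called genes that changed most among those with at least 10 CPM in the higher line, without overlap and still called without HCT8/5-Fu replicate 1, up to 5 genes of each list with the smallest p, and genes the study names. *LGR5*, *SOX9*, *TYMS*, *ABCB1*, *DCN*, *CCN2*, *YAP1* and other genes given for contrast or as markers were added for their role. miRNAs follow the same rule with at least 50 RPM, lncRNAs with a value of at least 10, and circRNAs are the 5 called in each direction with the smallest p and those the study lists. Some of those chosen are given. Alternatives were DESeq2 1.42.0, library totals, DESeq2 size factors, quantile scaling, other pseudocounts and filters, all 9 libraries in 1 fit, a replicate block, and each library left out in turn. Gene names of lncRNA transcripts were not analysed here.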

Additional observations from a re-analysis of the deposited data

How the results depend on the processing

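For mRNAs, library totals, DESeq2 size factors and no filter gave 243, 290 and 363 called genes against 295, DESeq2 gave 1283 and all 9 libraries in 1 fit 635. Leaving out each library in turn gave 0 to 3929 genes, with 3929 without HCT8/5-Fu replicate 1 and 0 without any other. For miRNAs the count of 7 became 4 with a pseudocount of 0.1, 0 without a filter (limma, 145 at an unadjusted p under 0.05), 20 with quantile scaling, 3 with all 9 libraries in 1 fit and 0 to 8 with a library left out. edgeR and DESeq2 on recovered reads, chosen after seeing the data, gave 23 and 29. For lncRNAs the count of 3 became 0 with a pseudocount of 0.1 or without a filter (limma, at most 575 at an unadjusted p under 0.05), 9 of 36 tested with a minimum value of 10, and 0 to 3 with a library left out. For circRNAs the count of 94 became 52 and 5 with pseudocounts of 0.1 and 600 RPM, 34 of 495 with at least 30 reads, and 61 to 87 with a library left out. The causes of these differences were not tested, apart from the smaller number of features tested under stricter filters.

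Same-numbered libraries of the resistant lines did not deviate together in all 3 pairs for mRNAs (r of -0.09, -0.26 and 0.10). For miRNAs r was above 0 in all 3 pairs (0.20, 0.06 and 0.11), while pairs with different numbers ran from -0.17 to 0.18. Whether same-numbered libraries share a batch was not tested. A fit with the replicate block called 0 mRNAs (edgeR, 2263 at an unadjusted p under 0.05), 1 miRNA that is none of the 7, 8 lncRNA transcripts and 100 circRNAs.

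The 92 mRNAs, 14 circRNAs and 3 lncRNA transcripts followed through the alternatives kept their direction in all 1104, 204 and 31 alternative values. Many of them were chosen because they were called or did not overlap in these same libraries. Their kept direction is therefore no independent support. Among 17 miRNAs, 3 of 242 values reversed, all of miR-503-5p, whose log2 fold change of -0.10 was 0.070 without HCT8/5-Fu replicate 1, 0.042 with edgeR and 0.021 with DESeq2 on recovered reads, and ran from -0.21 to 0.070 with a library left out.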
